A study of Mus musculus with 2 samples.

Results

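The 39 genes described here encode the fibrillar and beaded collagens, the elastic fibre, the small proteoglycans and other matrix proteins, and the surface and cytoskeletal markers of fibroblasts and smooth muscle. They were read in RNA from sorted mouse type II pneumocytes (alveolar type 2 cells, the epithelial cells that make surfactant). They were chosen by symbol from a list made with earlier results of these data known, and all 39 had a row among the 24369 rows of the deposited table. The table held 1 library from postnatal day 28 (P28) and 1 from postnatal day 7 (P7), both from wild-type C57BL6 mice bred by timed pregnancy, with no treatment named. The labels do not say how many animals were pooled into a library or which markers were used in the sort. Values are RPKM (reads mapped to a gene, divided by its length and by the depth of its library), which allows levels to be compared between genes. With 1 library per age there is no replicate check and no test, and "higher" or "lower" compares these 2 libraries.

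Collagens and elastin give the alveolar wall its strength and recoil, and they are made chiefly by fibroblasts and smooth muscle cells rather than by epithelium. Elastic fibres form when tropoelastin is deposited on a scaffold of fibrillin microfibrils, is gathered there by fibulins, and is crosslinked by lysyl oxidases. In the mouse lung this assembly is most active while the septa that divide the air sacs grow out in the first postnatal weeks.

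The spacing of the lowest RPKM values placed the depth at about 24541300 reads for P28 and 17574692 for P7, and the 39 genes together took about 12556 reads at P28 and 18623 at P7. All 11 markers of type 2 cells were measured. Their summed level was 29463 RPKM at P28 and 16864 RPKM at P7, and Sftpc alone, the surfactant protein C gene, had 24085 RPKM at P28 and 13343 RPKM at P7. Without Sftpc the sum was 5379 RPKM at P28 and 3521 RPKM at P7. Xist, the RNA that silences an X chromosome in females, had 0.245 RPKM at P28 and 52.7 RPKM at P7, while the Y-linked Ddx3y had 4.01 RPKM at P28 and was listed at 0 at P7. Values of this kind are seen between a male and a female library. Every difference between the ages described here could also be one between sexes, and the 2 cannot be told apart. Bgn and Gpc3 are the 2 of the 39 genes on the X chromosome. In bulk RNA, fewer cells of a type and less RNA per cell cannot be told apart either.

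Promoter sequences are shown for 6 of the genes with large differences between the ages, the first 4 lower and the last 2 higher at P28. They come from RefSeq on GRCm38.p6, run 5′ to 3′ on the gene's strand from 250 bases before the start site to 50 after it, and were available for 24 of the 39 genes. Capitals mark TATAAA, the core promoter element that places the start site, and CAGAC or its complement GTCTG, a short sequence that SMAD proteins bind. Postn lies at chr3:54360857-54361156 (plus strand), Tnc at chr4:64046966-64047265 (minus strand), Fbln5 at chr12:101819070-101819369 (minus strand) and Vim at chr2:13574061-13574360 (plus strand). The windows of Inmt at chr6:55174941-55175240 (minus strand) and Pdgfra at chr5:75152001-75152300 (plus strand) close the set.
Postn: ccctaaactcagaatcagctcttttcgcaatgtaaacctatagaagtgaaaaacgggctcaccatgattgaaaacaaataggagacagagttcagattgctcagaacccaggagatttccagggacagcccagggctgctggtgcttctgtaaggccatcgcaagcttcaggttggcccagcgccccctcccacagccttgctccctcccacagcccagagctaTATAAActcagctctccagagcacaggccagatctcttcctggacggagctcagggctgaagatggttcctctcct
Tnc: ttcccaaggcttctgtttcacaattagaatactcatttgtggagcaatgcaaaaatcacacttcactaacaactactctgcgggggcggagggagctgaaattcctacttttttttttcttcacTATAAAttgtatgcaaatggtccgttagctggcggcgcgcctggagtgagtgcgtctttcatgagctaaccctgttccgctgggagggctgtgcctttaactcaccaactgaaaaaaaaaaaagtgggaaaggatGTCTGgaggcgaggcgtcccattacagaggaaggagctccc
Fbln5: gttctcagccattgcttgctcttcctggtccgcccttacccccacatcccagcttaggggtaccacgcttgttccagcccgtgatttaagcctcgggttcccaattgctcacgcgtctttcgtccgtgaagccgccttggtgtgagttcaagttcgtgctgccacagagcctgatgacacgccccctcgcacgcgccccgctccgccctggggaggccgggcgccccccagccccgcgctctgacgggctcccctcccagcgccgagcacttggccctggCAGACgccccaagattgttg
Vim: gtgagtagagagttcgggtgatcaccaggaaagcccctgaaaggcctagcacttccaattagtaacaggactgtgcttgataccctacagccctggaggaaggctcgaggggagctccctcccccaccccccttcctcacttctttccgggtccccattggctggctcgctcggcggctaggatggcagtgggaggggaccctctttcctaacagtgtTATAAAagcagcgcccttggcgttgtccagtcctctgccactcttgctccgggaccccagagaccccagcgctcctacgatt
Inmt: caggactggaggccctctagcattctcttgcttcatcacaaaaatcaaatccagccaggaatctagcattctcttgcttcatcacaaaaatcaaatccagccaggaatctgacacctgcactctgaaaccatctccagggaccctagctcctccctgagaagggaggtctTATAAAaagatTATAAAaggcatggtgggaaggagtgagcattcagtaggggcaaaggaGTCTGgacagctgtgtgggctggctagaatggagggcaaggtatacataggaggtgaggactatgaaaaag
Pdgfra: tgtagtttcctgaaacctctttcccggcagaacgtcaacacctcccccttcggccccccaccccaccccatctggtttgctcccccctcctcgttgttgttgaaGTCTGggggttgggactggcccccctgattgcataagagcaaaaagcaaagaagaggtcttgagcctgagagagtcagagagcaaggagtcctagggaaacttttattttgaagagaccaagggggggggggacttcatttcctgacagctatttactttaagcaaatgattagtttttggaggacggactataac

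Postn and Vim carried TATAAA 26 and 32 bases before the start, where a TATA box usually stands. Inmt carried it 80 and 69 bases before the start, and Tnc 126 bases before it. Over both strands, TATAAA was found in 5 of the 24 promoters (20.8%), against 13.6% of all 32851 promoters in the table. The 24 are 1 promoter per gene, the one nearest the annotated gene start. The 32851 belong to 27025 genes and include several promoters of some genes, so the 2 sets were not picked alike. CAGAC was found in 15 of 24 (62.5%), against 49.6% of all. GGGCGG, the GC box bound by Sp1, was found in 11 of 24 (45.8%), against 35.7% of all. The CArG box, bound by serum response factor in smooth muscle genes, was searched only in its strict form CCWWWWWWGG, where W is A or T. This form was in 0 of 24 and in 1.63% of all. Forms with a G or C in the core were not counted, such as ccctatatgg and ccttgtttgg in the Acta2 window. TATAAA can lie inside a CArG box, and no other motif searched contains another. GC content had a median of 58% in the 24 promoters and 52.7% in all. A match here is a description of letters in a window and not a bound site.

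Taken over all 39 genes, the summed level was 205 RPKM at P28 and 383 RPKM at P7, a ratio of 0.536. This was 0.143% of the summed RPKM of the library at P28 and 0.352% at P7, so the genes were a very small part of either library. Sparc held 57.1% of the sum at P28 and 62.8% at P7. Without Sparc the sums were 88.1 RPKM at P28 and 142 RPKM at P7, a ratio of 0.619. The median level of the 39 genes was 0.758 RPKM at P28 and 1.85 RPKM at P7, and 22 genes at P28 and 15 at P7 lay under 1 RPKM.

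**Figure D1:**
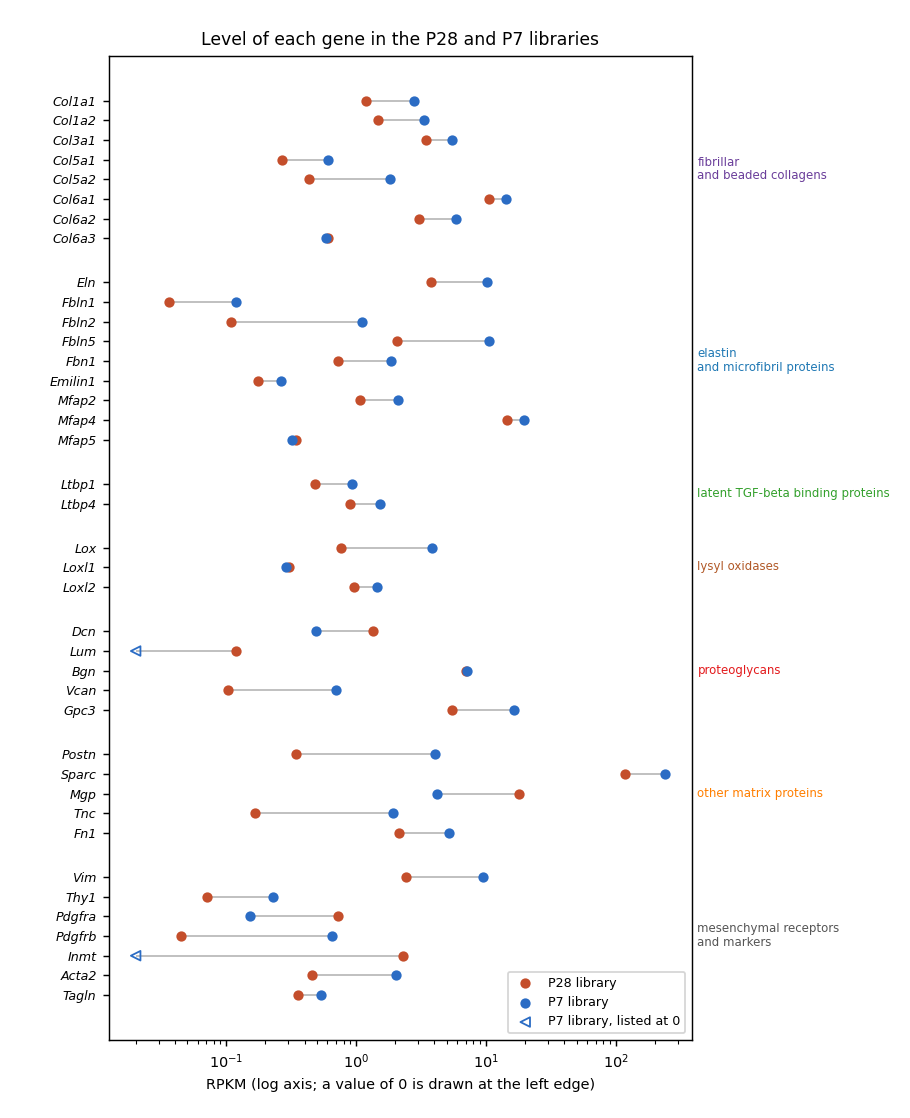
RPKM on a log axis for each of the 39 genes in the P28 library (red) and the P7 library (blue), grouped by role, with 1 library per age and no error bar. Sparc stands far to the right of all others in both libraries, and the red point lies left of the blue one for 31 genes.

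RPKM was lower at P28 in 31 of the 39 genes and higher in 8. Counting error was judged from the reads behind each value, as a 95% exact interval of the ratio of P28 to P7, given in brackets from here on and covering counting error only. The interval lay wholly below 1 for 26 genes (66.7%) and wholly above 1 for 5 (12.8%), and it held 1 for 8. Among all 15816 genes with a known length and at least 1 read, the interval lay below 1 for 25.5% and above 1 for 12.5%. The share of genes that were higher at P28 was therefore near that of all genes, while the share that were lower was not.

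A stricter call asked for a 2-fold difference in RPKM + 1 and at least 1 RPKM in 1 library, which 26 of the 39 genes reached. Genes enter this set through the library in which they are higher, so counts over them are a description. Of these 26, 9 (34.6%) were at least 2-fold lower at P28, namely Fbln5, Postn, Vim, Lox, Gpc3, Tnc, Eln, Acta2 and Sparc, and 2 (7.69%), Mgp and Inmt, were at least 2-fold higher. Over all 9653 genes measured in this way, 1.96% were lower and 1.18% higher. The median log2 ratio was -0.80 in the 26 genes and -0.08 in all measured genes. In 15 of the 26 genes both libraries reached 1 RPKM, 9 were measured only through P7 and 2 only through P28, and the 13 others were too low for this call. The added 1 RPKM understates the difference of low genes, so a plain ratio can pass 2 in a gene within 2-fold on this scale. With both libraries rescaled to the same total RPKM, which moved the median log2 ratio of all measured genes by -0.29, 15 genes were lower and 2 higher, against 4.61% and 0.673% of all measured genes. All 9 genes named as lower were lower on that scale too, but this scaling lowers P28 against P7 and could not have removed such a call. With equal upper quartiles 8 were lower, Sparc being just short of 2-fold at a log2 ratio of -0.995, and with the median of all measured genes set to 0 there were 7, without Sparc at -0.95 and Acta2 at -0.97.

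**Figure D2:**
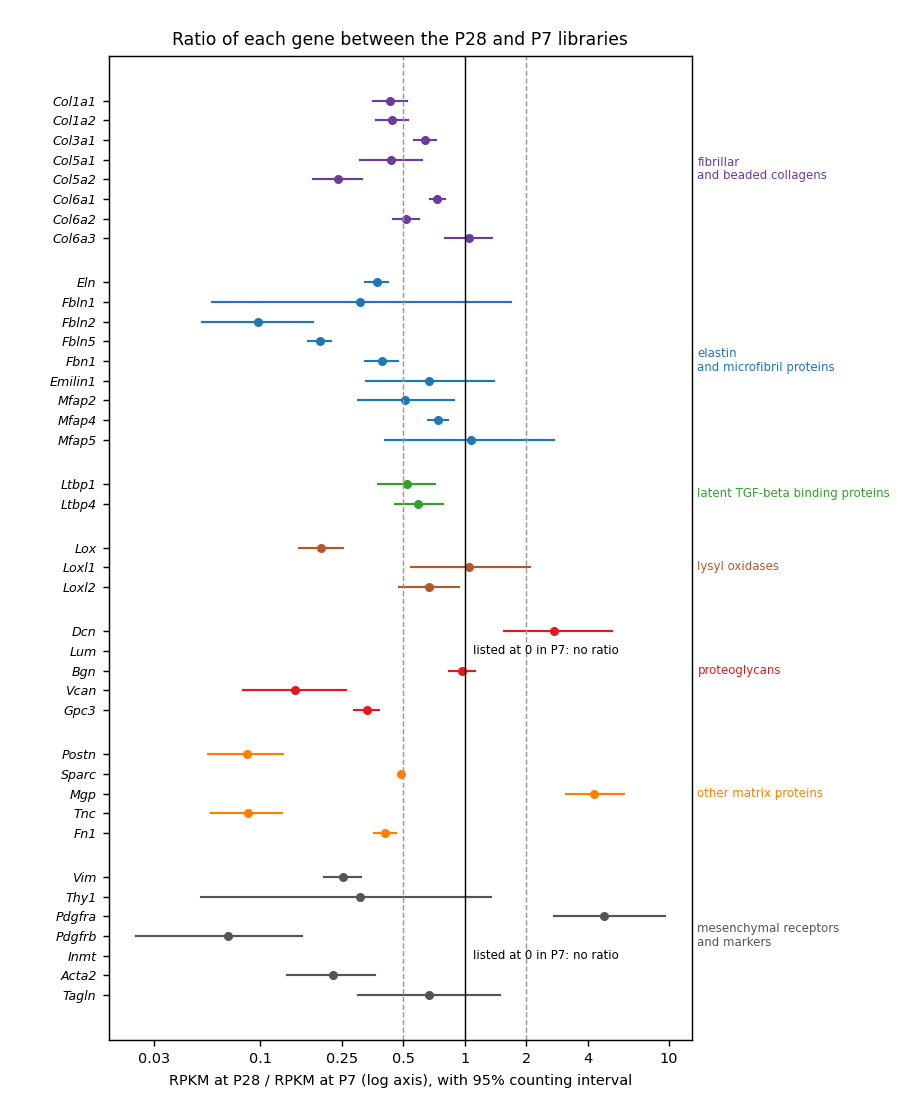
Ratio of RPKM at P28 to RPKM at P7 for each gene on a log axis, with its 95% counting interval and coloured by role. Dashed lines mark 2-fold in either direction. Postn, Tnc, Fbln2 and Pdgfrb lie near or below 0.1, while Mgp, Pdgfra and Dcn lie above 2, and Inmt and Lum have no ratio because P7 was listed at 0.

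**Figure D3:**
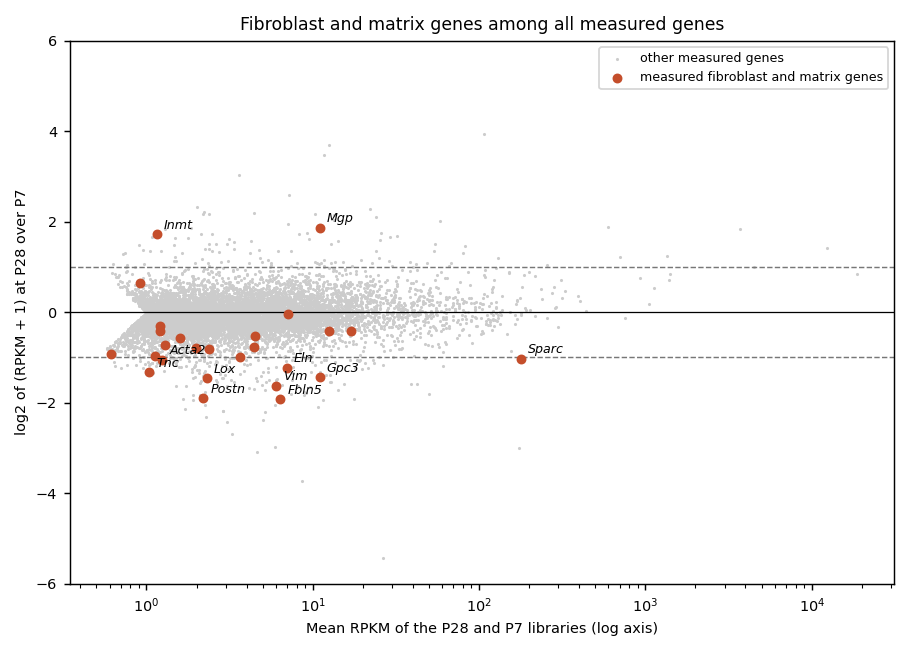
log2 ratio of RPKM + 1 at P28 over P7 against mean RPKM on a log axis, for all 9653 measured genes (grey) and the 26 measured fibroblast and matrix genes (red). The 11 genes beyond the dashed 2-fold lines are named.

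Elastin and the proteins of its scaffold were lower at P28. Eln, which encodes tropoelastin (chromosome 5, 134702593 to 134747323, minus strand, GRCm38), had 3.77 RPKM at P28 and 10.2 RPKM at P7 and was 2.70-fold lower (2.37 to 3.07). Fbln5, the fibulin that tethers tropoelastin to cells and microfibrils (chromosome 12, 101746565 to 101819055, minus strand), had 2.08 RPKM at P28 and 10.6 RPKM at P7 and was 5.12-fold lower (4.50 to 5.84). The level of Fbln5 was 0.550 times that of Eln at P28 and close to it at P7, at 1.04 times. Fbn1, the fibrillin of the microfibril core, had 0.727 RPKM at P28 and 1.85 RPKM at P7 and was 2.55-fold lower (2.11 to 3.08). Fbln2, another fibulin, had 0.109 RPKM at P28 and 1.12 RPKM at P7, which was 10.2-fold lower (5.50 to 19.3) on about 13 reads at P28 and 92 at P7. Mfap2, a small microfibril glycoprotein, had 1.07 RPKM at P28 and 2.09 RPKM at P7, a ratio of 0.512 (0.300 to 0.881).

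Other microfibril genes differed little or could not be told apart from equal. Mfap4, a fibrinogen-like protein that binds elastic fibres, was the most abundant of the group at both ages, with 14.4 RPKM at P28 and 19.6 RPKM at P7, a ratio of 0.738 (0.658 to 0.828). Its exons share 89 bases with Mapk7 on the other strand, which had 1.30 RPKM at P28 and 1.79 RPKM at P7. Whether the authors' counts were strand-specific is not stated, which also touches Fbn1, where an opposite-strand gene shares 2442 exon bases. Emilin1, a glycoprotein at the elastin to microfibril interface, had 0.176 RPKM at P28 and 0.262 RPKM at P7, and its interval of 0.328 to 1.39 held 1. Fbln1 had about 3 reads at P28 and 6 at P7, and Mfap5 about 13 at P28 and 9 at P7, and for both the interval held 1. In all, 2 of the 6 measured genes of the group were at least 2-fold lower and none was higher.

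Among the enzymes that crosslink collagen and elastin, Lox stood apart from its relatives. Lox, the founding lysyl oxidase, had 0.758 RPKM at P28 and 3.84 RPKM at P7 and was 5.07-fold lower (3.96 to 6.49). Loxl2 had 0.963 RPKM at P28 and 1.44 RPKM at P7, a ratio of 0.669 (0.479 to 0.936). For Loxl1, the relative most closely tied to elastin in mice, the levels were 0.305 RPKM at P28 and 0.289 RPKM at P7, a ratio of 1.05 (0.546 to 2.08). The level of Lox was 0.787 times that of Loxl2 at P28 and 2.67 times at P7. The latent TGF-beta binding proteins, which store the growth factor in the matrix, had intervals wholly below 1. Ltbp1 had 0.480 RPKM at P28 and 0.921 RPKM at P7, a ratio of 0.521 (0.378 to 0.718). Ltbp4 had 0.901 RPKM at P28 and 1.52 RPKM at P7, a ratio of 0.592 (0.454 to 0.779).

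Fibrillar collagens were present at a few RPKM and were lower at P28, although none of the 6 measured collagen genes reached 2-fold on the RPKM + 1 scale as deposited. With equal totals 4 of the 6 did, namely Col1a1, Col1a2, Col5a2 and Col6a2. Col1a1, which encodes the alpha 1 chain of type I collagen, had 1.19 RPKM at P28 and 2.78 RPKM at P7 and was 2.33-fold lower (1.92 to 2.83). Its partner Col1a2 had 1.46 RPKM at P28 and 3.32 RPKM at P7 and was 2.27-fold lower (1.89 to 2.73). The level of Col1a1 was 0.817 times that of Col1a2 at P28 and 0.837 times at P7, so both chains differed by much the same factor. Col3a1, the type III chain that forms mixed fibrils with type I, had 3.48 RPKM at P28 and 5.45 RPKM at P7, a ratio of 0.638 (0.563 to 0.724). The type V chains, which set fibril diameter, differed from each other. Col5a2 had 0.436 RPKM at P28 and 1.83 RPKM at P7 and was 4.19-fold lower (3.19 to 5.56). Col5a1 had 0.266 RPKM at P28 and 0.608 RPKM at P7 and was 2.29-fold lower (1.62 to 3.26), close to the type I chains. Col3a1 and Col5a2 lie 24.6 kb apart on chromosome 1 and their intervals did not overlap.

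The 3 chains of type VI collagen, which combine into beaded filaments around cells, were at unequal levels. Col6a1 had 10.6 RPKM at P28 and 14.4 RPKM at P7. Col6a2 had 3.03 RPKM at P28 and 5.88 RPKM at P7. Col6a3 had 0.608 RPKM at P28 and 0.581 RPKM at P7. The level of Col6a1 was 17.4 times that of Col6a3 at P28 and 24.7 times at P7. Col6a1 had a ratio of 0.734 (0.673 to 0.801) and Col6a2, its neighbour on chromosome 10 at 85.2 kb, one of 0.516 (0.446 to 0.597). Col6a3 had a ratio of 1.05 (0.797 to 1.36), and its log2 ratio, like those of Mfap5 and Loxl1, turned from slightly above 0 to slightly below it when the libraries were rescaled to the same total.

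The proteoglycans differed in both directions. Gpc3, a glypican anchored to the cell surface (chromosome X, 52272426 to 52613950, minus strand), had 5.47 RPKM at P28 and 16.5 RPKM at P7 and was 3.02-fold lower (2.63 to 3.48). Vcan, the large proteoglycan of provisional matrix, had about 16 reads at P28 and 76 at P7 and was 6.79-fold lower (3.83 to 12.2). Bgn, a small leucine-rich proteoglycan on the X chromosome, had 6.98 RPKM at P28 and 7.20 RPKM at P7, a ratio of 0.969 (0.834 to 1.13). Dcn, the small leucine-rich proteoglycan that coats collagen fibrils, was higher at P28, with 1.35 RPKM at P28 and 0.490 RPKM at P7, a ratio of 2.75 (1.55 to 5.26). Its neighbour Lum, 47 kb away on chromosome 10, had 0.118 RPKM at P28 on about 7 reads and was listed at 0 at P7. Dcn and Lum were thus both higher in the same library, on few reads. After rescaling to the same total the log2 ratio was 0.48 for Dcn and 0.14 for Lum.

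Matrix proteins of growing and remodelling tissue, here Postn, Tnc and Fn1, were lower at P28. Postn, which encodes periostin, a matricellular protein that binds collagen (chromosome 3, 54361109 to 54391037, plus strand), had 0.346 RPKM at P28 and 4.03 RPKM at P7 and was 11.7-fold lower (7.79 to 18.1). Tnc, tenascin C, a matrix glycoprotein of developing tissue (chromosome 4, 63959785 to 64047015, minus strand), had 0.166 RPKM at P28 and 1.92 RPKM at P7 and was 11.6-fold lower (7.81 to 17.6). Postn rested on about 27 reads at P28 and 225 at P7, and Tnc on about 29 at P28 and 239 at P7. These were the lowest ratios among the 26 measured genes. Fn1, fibronectin, had 2.12 RPKM at P28 and 5.22 RPKM at P7 and was 2.46-fold lower (2.17 to 2.78). The level of Tnc was 0.0782 times that of Fn1 at P28 and 0.368 times at P7.

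Sparc, which encodes a secreted glycoprotein that binds collagen and calcium (chromosome 11, 55394500 to 55423183, minus strand), had 117 RPKM at P28 and 240 RPKM at P7. It ranked 80 among all rows at P28 and 24 at P7 and was 2.05-fold lower at P28 (1.99 to 2.12), just past the 2-fold call. No other gene of the 39 reached 20 RPKM in either library, so Sparc stood apart from the collagens in level although it differed in the same direction. Mgp, matrix Gla protein, an inhibitor of calcification (chromosome 6, 136872435 to 136875823, minus strand), differed the other way. It had 17.9 RPKM at P28 and 4.17 RPKM at P7, a ratio of 4.28 (3.13 to 6.03) on about 270 reads at P28 and 45 at P7. Mgp ranked 748 at P28 and 3971 at P7, and its log2 ratio was 1.87 as deposited and 1.52 with equal totals.

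Receptors and markers of mesenchymal cells were mostly under 1 RPKM, and 3 of 7 were measured. Vim, the intermediate filament vimentin (chromosome 2, 13573927 to 13582826, plus strand), had 2.42 RPKM at P28 and 9.54 RPKM at P7 and was 3.95-fold lower (3.23 to 4.87). Acta2, smooth muscle actin, had 0.458 RPKM at P28 and 2.03 RPKM at P7 and was 4.43-fold lower (2.74 to 7.42). Tagln, another smooth muscle cytoskeletal gene, had about 14 reads at P28 and 15 at P7, and its interval of 0.299 to 1.49 held 1. On the other strand, exons of Gm48529 share 1241 bases with Tagln, whose transcript is 1595 bases long, and those of Pcsk7 share 108. Pcsk7 had 1.56 RPKM at P28 and 2.02 RPKM at P7, so reads of Tagln cannot be assigned to a strand. Thy1, a fibroblast and lymphocyte surface protein, had about 3 reads at P28 and 7 at P7, and its interval held 1.

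The receptors for platelet-derived growth factor differed in opposite directions. Pdgfra, the receptor of alveolar fibroblasts and their precursors, had 0.730 RPKM at P28 and 0.152 RPKM at P7, a ratio of 4.81 (2.73 to 9.57). Pdgfrb, the receptor of pericytes and other mural cells, had 0.0451 RPKM at P28 and 0.650 RPKM at P7 and was 14.4-fold lower (6.27 to 40.8). The level of Pdgfra was 16.2 times that of Pdgfrb at P28 and 0.233 times at P7. Pdgfra rested on about 89 reads at P28 and 13 at P7, and Pdgfrb on about 6 at P28 and 62 at P7. Both genes stayed under 1 RPKM in both libraries and so lay outside the 2-fold call. Annotated transcripts on the opposite strand share 456 and 166 exon bases with Pdgfra, so its reads cannot be assigned to a strand. Inmt, an indolethylamine methyltransferase used as a marker of lung fibroblasts (chromosome 6, 55170626 to 55175043, minus strand), had 2.31 RPKM at P28 on about 61 reads and was listed at 0 at P7. Its P28 value was 14.55 times a floor of 3 reads in the P7 library, a figure that leaves out counting error in the P28 reads.

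Markers of other cell types were read in the same libraries, and their part in these differences was not tested. Of 18 other fibroblast markers 4 were measured, and the sum was 35.1 RPKM at P28 and 58.7 RPKM at P7. Most of this came from Npnt, with 20.7 RPKM at P28 and 38.0 RPKM at P7, and Limch1, with 11.2 RPKM at P28 and 12.3 RPKM at P7. The fibroblast regulators Tcf21, Fgf10, Wnt2 and Prrx1 had at most 0.370 RPKM in either library, and Twist1 was listed at 0 in both. Foxf1, also a regulator, had 1.07 RPKM at P28 and 3.35 RPKM at P7. Tbx4 had 0.0874 RPKM at P28 and 0.854 RPKM at P7, and Meox2 had 0.19 RPKM at P28 and 0.677 RPKM at P7. The intervals of Foxf1, Tbx4 and Meox2 lay below 1, and those of Tcf21, Fgf10, Wnt2 and Prrx1 held 1. Of 10 other smooth muscle and myofibroblast markers 3 were measured, with a sum of 6.18 RPKM at P28 and 7.00 RPKM at P7. Mylk, myosin light chain kinase, made up 5.29 RPKM of that sum at P28 and 1.39 RPKM at P7. Without Mylk the sum was 0.899 RPKM at P28 and 5.61 RPKM at P7, and Actg2 was listed at 0 at P28.

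Pericyte markers had the largest relative difference of these lists, with a sum of 1.18 RPKM at P28 and 6.42 RPKM at P7 and 2 of 10 measured. Most of it came from Mcam, with 0.689 RPKM at P28 and 3.04 RPKM at P7, and Gucy1a3, with 0.306 RPKM at P28 and 1.84 RPKM at P7. Rgs5 was listed at 0 at P28 and had 0.345 RPKM at P7 on about 15 reads. Higd1b and Ndufa4l2 were listed at 0 at P28 and had about 3 reads each at P7, which is no detectable difference, and Kcnj8 was listed at 0 in both. Endothelial markers, with 11 of 12 measured, summed to 28.4 RPKM at P28 and 62.2 RPKM at P7. Mesothelial markers, with 3 of 8 measured, summed to 7.47 RPKM at P28 and 9.25 RPKM at P7, but without Msln to 6.28 RPKM at P28 and 4.01 RPKM at P7. For leukocyte markers, with 3 of 11 measured, the sum was 5.68 RPKM at P28 and 8.36 RPKM at P7, and Marco, C1qa and Cd79a were listed at 0 in both and Coro1a at P28. The lower leukocyte sum rested on Srgn, with 1.34 RPKM at P28 and 4.36 RPKM at P7, and without it the sum was 4.33 RPKM at P28 and 3.999 RPKM at P7. Most of that remainder was Cd79b, with 3.02 RPKM at P28 and 2.84 RPKM at P7. Ptprc, a general leukocyte marker, had about 1 read at P28 and 8 at P7. Cd68, a macrophage marker, had 1.08 RPKM at P28 and 0.455 RPKM at P7. Epithelial markers, with 7 of 8 measured, summed to 251 RPKM at P28 and 353 RPKM at P7, and most of this gap was Cldn18, with 111 RPKM at P28 and 202 RPKM at P7. Without Cldn18 the sum was 140 RPKM at P28 and 151 RPKM at P7. Alveolar type 1 markers, with 11 of 11 measured, summed to 269 RPKM at P28 and 457 RPKM at P7.

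**Figure D4:**
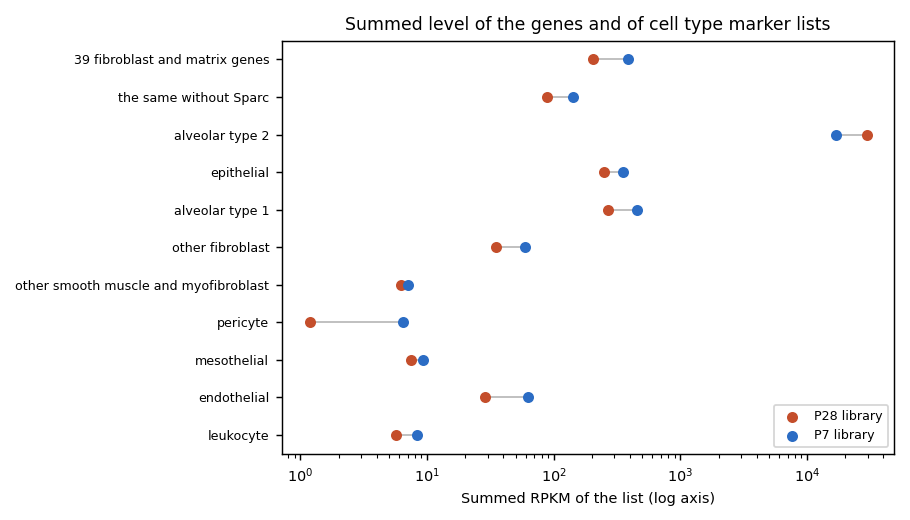
Summed RPKM on a log axis of the 39 genes, of the same genes without Sparc, and of 9 marker lists, in the P28 library (red) and the P7 library (blue). The type 2 markers are the one list whose sum is higher at P28, at 29463 RPKM against 16864 RPKM, and most of that sum is Sftpc. Of these 11 markers 1 is at least 2-fold higher at P28 and 10 lie within 2-fold. Their median log2 ratio is 0.19.

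The enzymes that fold and process collagen chains had a median log2 ratio of -0.41, with 2 of 17 measured genes at least 2-fold lower at P28 (4 with equal totals) and none higher. P4ha3, a prolyl hydroxylase subunit, had 0.207 RPKM at P28 and 3.61 RPKM at P7 and was 17.5-fold lower (9.70 to 34.5). P3h2, a prolyl 3-hydroxylase, had 1.61 RPKM at P28 and 4.34 RPKM at P7. The abundant folding enzymes, which also serve other secreted proteins, lay within 2-fold. P4hb had 50.6 RPKM at P28 and 67.3 RPKM at P7, and Ppib had 42.6 RPKM at P28 and 38.0 RPKM at P7, with a log2 ratio of 0.16 as deposited and of -0.22 after rescaling to equal totals. Of 23 other collagen chains, type IV not included, only Col12a1 and Col23a1 reached 1 RPKM, and neither was 2-fold apart. Col12a1 had 1.69 RPKM at P28 and 2.80 RPKM at P7, and Col23a1 had 1.19 RPKM at P28 and 1.46 RPKM at P7.

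Elastic fibre genes outside the 39 also held genes that were lower at P28, with 2 of 7 measured genes lower and none higher. Fbn2, the fibrillin prominent in developing tissue, had 0.485 RPKM at P28 and 4.04 RPKM at P7 and was 8.33-fold lower (6.94 to 10.1). Ltbp2 had 0.166 RPKM at P28 and 1.74 RPKM at P7 and was 10.5-fold lower (6.97 to 16.2). Efemp1, a fibulin family member, was the most abundant of them, with 17.3 RPKM at P28 and 17.8 RPKM at P7, a ratio of 0.969 (0.874 to 1.08). Ltbp3 had 6.78 RPKM at P28 and 13.2 RPKM at P7.

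Genes of TGF-beta and PDGF signalling, which drive matrix production and fibroblast growth, were lower at P28 in 4 of 18 measured TGF-beta genes (6 with equal totals) and in 1 of 2 measured PDGF ligands (2 with equal totals), and none was higher. Ctgf, a secreted target of TGF-beta and of Hippo signalling, had 4.15 RPKM at P28 and 18.8 RPKM at P7. The ligand gene Tgfb2 had 1.98 RPKM at P28 and 7.19 RPKM at P7, and Thbs1, whose protein can activate latent TGF-beta, had 2.41 RPKM at P28 and 7.58 RPKM at P7. Itgb6, the epithelial integrin subunit that activates TGF-beta, had 5.94 RPKM at P28 and 14.6 RPKM at P7, while the receptor gene Tgfbr2 had 8.98 RPKM at P28 and 11.9 RPKM at P7. Pdgfa, the epithelial ligand of the Pdgfra receptor, had 12.2 RPKM at P28 and 26.3 RPKM at P7 and was 2.16-fold lower (1.95 to 2.39), the opposite direction to its receptor gene. Pdgfb had 1.18 RPKM at P28 and 2.74 RPKM at P7.

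Matrix proteases and their inhibitors had 3 of 9 measured genes lower and none higher, and 7 of 9 were lower with equal totals. Mmp11 had 3.46 RPKM at P28 and 14.2 RPKM at P7, Mmp14, a membrane-bound collagenase, had 1.93 RPKM at P28 and 7.37 RPKM at P7, and Adamts1 had 14.4 RPKM at P28 and 32.6 RPKM at P7. Timp3, a matrix-bound protease inhibitor, had 36.8 RPKM at P28 and 61.6 RPKM at P7 and lay within 2-fold. Basement membrane genes other than type IV collagen, several of which epithelium makes itself, had 8 of 10 measured genes lower and a median log2 ratio of -1.32. Lamc1, the common laminin gamma chain, had 7.17 RPKM at P28 and 23.6 RPKM at P7, and Lama3 had 6.07 RPKM at P28 and 19.8 RPKM at P7. Nid1, which links laminin to type IV collagen, had 0.868 RPKM at P28 and 4.41 RPKM at P7. Lama5, Lamb1, Hspg2 and Agrn were between 2.74-fold and 4.46-fold lower.

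**Figure D5:**
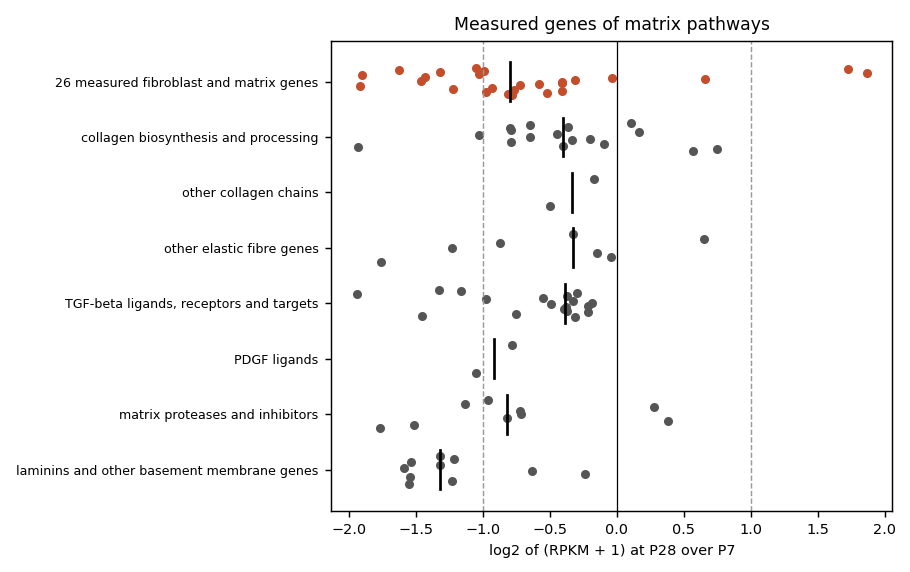
log2 ratio of RPKM + 1 at P28 over P7 for each measured gene of the 39 (red) and of 7 related pathway lists (grey), with the median of each as a black bar and 2-fold as dashed lines. Basement membrane genes have the lowest median, -1.32, and the 2 genes beyond 2-fold on the right, Mgp and Inmt, are both among the 39.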

How the data were processed

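Per the labels' protocols, total RNA of the cells was turned into cDNA, made into libraries with a Nextera XT kit and read from both ends. TopHat, TopHat2 2.0.9 and GRCm38 (mm10) are credited in the submitters' processing notes. The authors deposited RPKM values with a column for each library, and each column carries a sample title, per the file headers. Which program and annotation gave the RPKM is not given in the sources used here. There were 0 unused columns.

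Depth was recovered from RPKM. For genes with a single transcript length (GENCODE transcripts linked to RefSeq), RPKM times length fell within 0.05 of whole steps in 64.0% of 1707 low genes at P28 and 65.0% of 1864 at P7. The step was 0.0408 RPKM at P28 and 0.0569 at P7 for 1 read on 1 kilobase, taken as 1 read. The commonest ratio between libraries, 0.716 in 451 genes, fixed the quotient of the steps. Of the 39 genes, 26 had a single length, and the others took the mean, so their read numbers are approximate. Exact (Clopper-Pearson) 95% intervals of the ratio and floors of 3 reads per library cover counting error only, since the labels name no molecular identifiers and PCR copies of 1 molecule would count as separate reads.

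The log2 ratio of RPKM + 1 was called at 2-fold for genes that reached 1 RPKM in either library. There was no test. The 2-fold call was tried on simulated data with known changes only in genes with a mean of 5 RPKM or more. Of the 39 genes, 6 reached 5 RPKM at P28 and 11 at P7, so the simulation does not cover most of them. Members and lists were chosen with earlier results of these data known. Every listed gene is reported by value or count. From each of 7 pathway lists, genes at least 2-fold apart and the 2 most abundant are named, except 1 gene that is not reported here. Single marker genes were named, and marker sums also taken without 1 gene, after their values were seen. Alternatives changed the pseudocount, the filter, the scaling and the transcript length. Analyses used Python 3.11.15, numpy 2.4.6, pandas 2.3.3, scipy 1.17.1 and matplotlib 3.10.9.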

Additional observations from a re-analysis of the deposited data

How the results depend on the processing

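No paired analysis was possible because each age had 1 library. As reported, 9 measured genes were at least 2-fold lower at P28 and 2 higher, with a median log2 ratio of -0.80. A pseudocount of 0.1 RPKM gave 15 lower and a median of -1.14, and a pseudocount of 5 gave 3 lower, 1 higher and a median of -0.33. A filter of 5 RPKM, which left 12 genes, gave 5 lower, 1 higher and a median of -0.88, and no filter gave a median of -0.53. With equal totals 15 were lower and the median was -1.07, with equal upper quartiles 8 were lower (Sparc lost) and the median was -0.77, and with the median of all genes set to 0, 7 were lower (Sparc and Acta2 lost) and it was -0.72. The ratio of summed RPKM, 0.536 as deposited, was 0.408 with equal totals, 0.550 with equal upper quartiles and 0.619 without Sparc. A pseudocount cannot change the direction of a gene, and equal totals lower P28 against P7. These settings therefore could not turn any of the 9 lower genes. With equal totals the log2 ratio was 1.52 for Mgp and 1.60 for Inmt, the 2 higher genes. The longest transcript length in place of the mean gave 12958 reads at P28 and 19229 at P7. With 1 library per age and many values under 1 RPKM, depth limits Fbln1, Thy1, Lum and Pdgfrb, each with 7 or fewer reads at P28.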

Other observations

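Mesothelial markers, the genes of the cells that line the lung surface, differed in both directions. Msln, mesothelin, had 1.19 RPKM at P28 and 5.24 RPKM at P7 and was 4.39-fold lower (3.27 to 5.91). Upk3b had 2.04 RPKM at P28 and 1.23 RPKM at P7, a ratio of 1.66 (1.26 to 2.20), Gpm6a had 2.09 RPKM at P28 and 0.975 RPKM at P7, a ratio of 2.15 (1.57 to 2.97), and Lrrn4 had 0.714 RPKM at P28 and 0.294 RPKM at P7, a ratio of 2.43 (1.45 to 4.33). Their log2 ratios stayed above 0 with equal totals, at 0.21, 0.42 and 0.28. These genes were named after their values were seen, and no explanation was tested.

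Among smooth muscle and myofibroblast genes, Mylk was higher at P28, with 5.29 RPKM at P28 and 1.39 RPKM at P7, a ratio of 3.81 (3.26 to 4.47). Myl9, a myosin light chain of smooth muscle, had 0.376 RPKM at P28 and 1.83 RPKM at P7 and was 4.89-fold lower (2.44 to 11.4). Aspn, asporin, a myofibroblast proteoglycan, had 0.0865 RPKM at P28 and 1.45 RPKM at P7 and was 16.8-fold lower (6.68 to 52.6). Mylk thus differed from Acta2, Myl9 and Aspn in direction, and it was also named after its value was seen.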
